A study of Mus musculus with 2 samples.

Results

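Troponin is the calcium switch of striated muscle. Troponin T anchors the complex to tropomyosin on the thin filament, troponin I inhibits the contact between actin and myosin at rest, and troponin C binds calcium and relieves that inhibition. Each subunit has several genes with a known division of labour. Tnnt2 and Tnni3 encode the cardiac T and I subunits, Tnnc1 encodes the C subunit that heart and slow muscle share, Tnnt1 and Tnni1 encode the slow skeletal forms, and Tnnt3, Tnni2 and Tnnc2 the fast skeletal forms. Tnni1 is also the form of the fetal heart, and Tnnt2 is known for alternative exons whose use changes with development. The members are these 8 genes, taken by name among 43346 gene identifiers, with all 82 of their annotated transcripts. Their rule uses gene names and no threshold on a measured value.

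The tissue was whole heart of C57BL/6J mice aged 8 weeks, and its RNA longer than 200 nt was selected for poly(A) tails and sequenced as stranded read pairs of 76 nt. There was 1 group of 2 libraries, called biological replicates 1 and 2, from separate tissue samples filed under a single donor record. No treatment, genotype or time point was varied, so each value is a level, a share within a library, or a difference between the 2 libraries. The libraries held 57464573 and 62912053 estimated counts, of which 98.3% to 98.4% fell on genes. The labels describe each sample as pooled male and female tissue, but the counts of sex-linked genes went against this: Xist, the X-inactivation RNA of female cells, had 13725 and 13, and the sum over 4 genes of the Y chromosome was 0 and 2916. The cardiomyocyte markers Myh6, Myl2, Myl3, Myh7, Actn2, Ryr2, Pln and Nkx2-5 were all detected, with a summed level of 12505 and 12851 TPM (a read count divided by gene length and scaled to the same total in every library). Mitochondrial genes held 46.6% and 30.6% of the TPM, which lowers every other TPM by a different amount in each library.

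The cardiac forms accounted for nearly all troponin RNA. Tnni3 stood at 4631 TPM in replicate 1 and 11029.9 in replicate 2, Tnnc1 at 2075 and 2570, and Tnnt2 at 1628 and 1797. The other 5 genes together summed to 7.24 and 10.5 TPM. Tnni3 ranked 3 and 5 by TPM among 21461 protein-coding nuclear genes, Tnnc1 ranked 13 and 19, and Tnnt2 ranked 22 and 24. Both libraries gave the same order for these 3 genes, and the ranges of neighbours in the order did not overlap.

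**Figure D1:**
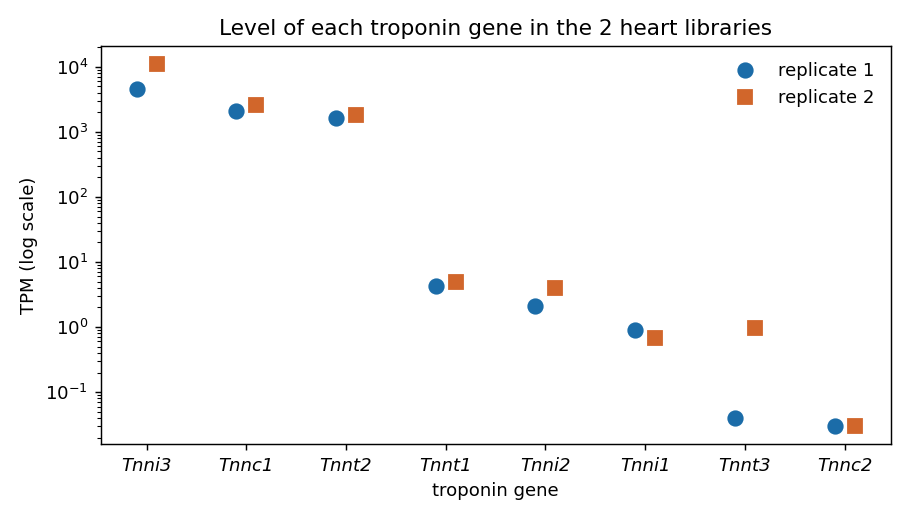
TPM of each troponin gene (logarithmic axis) in replicate 1 (circles) and replicate 2 (squares), ordered by the mean. Tnni3, Tnnc1 and Tnnt2 lie between 1628 and 11029.9 TPM, while the other 5 genes lie at or under 4.89 TPM.

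The skeletal forms were present at trace levels. Tnnt1 (chr7:4504570-4516382, minus strand, mm10 as all coordinates here) had 4.21 and 4.89 TPM from 170 and 213 counts. Tnni2 (chr7:142441808-142444410, plus strand) had 2.07 and 3.94 TPM from 70 and 141 counts. Tnni1 (chr1:135779434-135810989, plus strand), the form of the fetal heart, had 0.89 and 0.69 TPM from 51 and 37 counts. Tnnt3 (chr7:142498836-142516009, plus strand) had 0.04 and 0.96 TPM from 1 and 34 counts, so its range spanned that of Tnni1 and the order of these 2 genes differed between the libraries. Tnnc2 (chr2:164777161-164779967, minus strand) had 1 count in each library, on its transcript Tnnc2-201, below the 3 counts used as the limit of detection here.

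Within each subunit, the share of the cardiac gene differed little between libraries. Tnnt2 held 99.708% ± 0.0454 of troponin T TPM (SD, n = 2), and Tnnt1 was 387 and 367 times lower. Tnni3 held 99.947% ± 0.0155 of troponin I TPM, and exceeded Tnni2 by 2237 and 2800 times. In troponin C, the remainder outside Tnnc1 was 0.00145% and 0.00117%. The ratio of Tnni3 to Tnni1 rested on the 51 and 37 counts of Tnni1 and was 5204 in replicate 1 and 15985 in replicate 2.

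By the deposited estimates, Tnni3, the inhibitory subunit, was carried mostly by a short annotated transcript rather than by the full-length one. The gene lies on chr7:4518305-4524229 (mm10, minus strand). Its only transcript with a complete reading frame, Tnni3-201, has 8 exons and 912 nt, and had 1020 TPM in replicate 1 and 1100.4 TPM in replicate 2. Tnni3-207 has 7 exons and 548 nt, and had 3090 and 9542 TPM. Its share of the gene was 66.7% and 86.5%, against 22.0% and 9.98% for Tnni3-201. Another model, Tnni3-205, had 410 and 189.5 TPM, or 8.85% and 1.72% of the gene. Tnni3-207 ranked 28 and 17 among the 129984 transcript entries, and Tnni3-201 ranked 66 and 81.

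The 3 models share the exons at the beginning of the reading frame and differ at both ends. The annotated coding sequence is 633 nt in Tnni3-201, 375 nt in Tnni3-205 and 336 nt in Tnni3-207. Tnni3-207 opens with an exon of 86 nt whose start lies 1701 bp upstream of that of Tnni3-201, and Tnni3-205 with an exon of 100 nt that starts 266 bp upstream. Neither holds exons 7 and 8 of Tnni3-201, and neither has an annotated stop codon. Of the bases of Tnni3-207, 462 (84.3%) also belong to Tnni3-201, so reads in those bases fit both, and the division between them is an estimate of the authors' quantification. Tnni3-207 ends inside exon 6 of Tnni3-201, at chr7:4520438-4520527 (mm10, minus strand). The exon is shown because it holds the point where the annotated models part; capitals mark the 51 bases that Tnni3-207 includes, and small letters the rest of the exon, from the GENCODE M21 transcript.
Tnni3-201 exon 6: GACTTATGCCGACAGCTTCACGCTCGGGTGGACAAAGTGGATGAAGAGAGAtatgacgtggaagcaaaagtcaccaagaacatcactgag

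**Figure D2:**
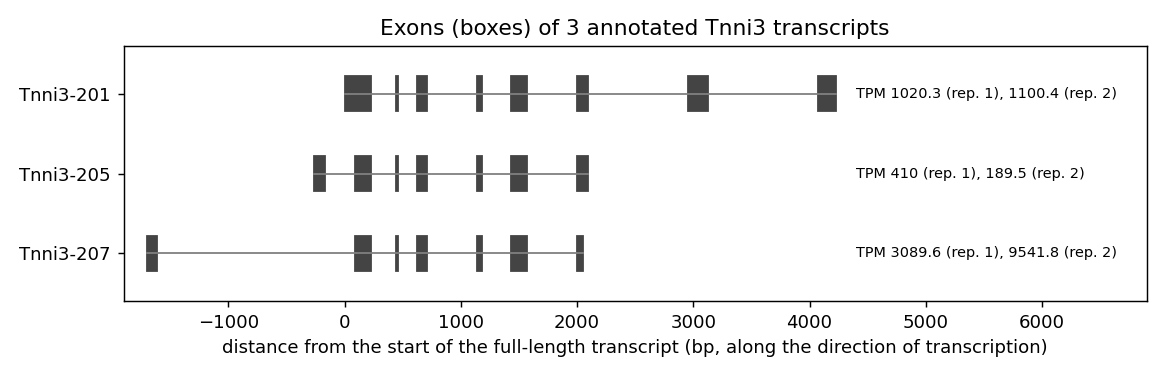
Exons (boxes) of 3 Tnni3 transcripts, placed by distance in bp from the start of Tnni3-201, with the TPM of each library at the right. Tnni3-207 starts 1701 bp upstream and lacks the last 2 exons of Tnni3-201.

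The first exon of Tnni3-207 lies wholly inside an exon of Dnaaf3, a dynein assembly factor of motile cilia on the same strand. Dnaaf3 had 4.32 and 6.99 TPM from 545 and 931 counts, and was not called different between the libraries. Reads in those 86 bases cannot be assigned to 1 of the 2 genes by strand. Tnni3-205, whose first exon lies closer to the gene, had 10148 and 5033 counts and was thus lower in replicate 2.

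In the deposited estimates, the difference in Tnni3 between the libraries was assigned to Tnni3-207. The whole gene had 124405 and 282273 counts, which after scaling was 1.90-fold more in replicate 2 (95% interval 1.89 to 1.91, from counting error). Tnni3-207 had 66248 and 220181 counts, 2.78-fold more. Tnni3-201 had 45051 and 51714 counts, a ratio of 0.961. In TPM, replicate 2 minus replicate 1, the difference in Tnni3-207 was 101% of that in the gene, the difference in Tnni3-205 was −220.5 TPM, and the difference in Tnni3-201 was 1.25% of that in the gene. By these estimates the full-length transcript had nearly the same level in both libraries, and the gene total did not.

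**Figure D3:**
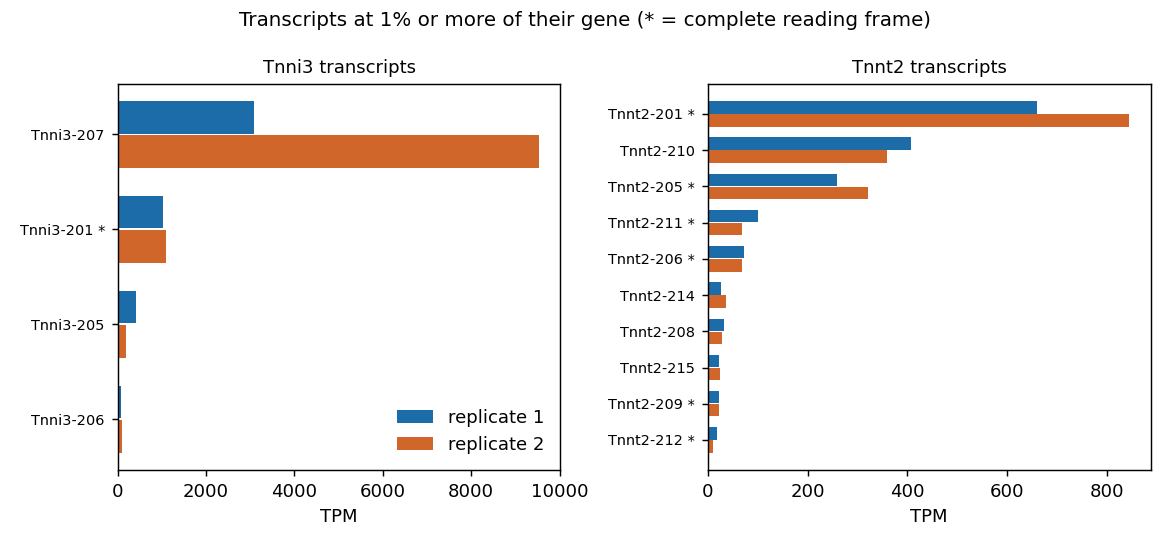
TPM (bars from 0) of the Tnni3 transcripts (left) and Tnnt2 transcripts (right) that reach 1% of their gene, in replicate 1 (blue) and replicate 2 (orange); an asterisk marks a complete reading frame. Tnni3-207 stands at 3090 and 9542 TPM, while Tnni3-201 stands at 1020 and 1100.4 TPM.

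Tnnt2, the tropomyosin-binding subunit, was spread over more transcripts. The gene lies on chr1:135836354-135852260 (mm10, plus strand), and 10 of its 15 transcripts have a complete reading frame. These 10 held 69.9% and 74.9% of its TPM. Tnnt2-201 led with 40.5% and 47.0% of the gene (660 and 845 TPM), and Tnnt2-205 followed among them with 15.9% and 17.9% (259 and 321 TPM). Tnnt2-211 had 6.18% and 3.87%, and Tnnt2-206 had 4.51% and 3.87%. A retained-intron model of 292 nt, Tnnt2-210, had 25.0% and 20% of the TPM but only 2230 and 2248 of the 76075 and 92731 counts. Its TPM rests on an effective length of 87.7 and 95.2 bases, because the fragments averaged 205 and 198 nt, as read from the difference between annotated and effective lengths.

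The complete Tnnt2 transcripts differ in their first exons and in small coding exons. Tnnt2-201 and Tnnt2-211, both with 873 coding nt, share all exons from chr1:135841901 on and differ only before it. So do Tnnt2-206 and Tnnt2-212, both with 885 coding nt. Coding differences among the complete transcripts lie mainly in the small exons. They are shown with 21 bases of the spliced transcript on each side, from GENCODE M21, to make visible which stretch of the message is gained or lost; capitals mark the exon, and lines without capitals show the junction when it is skipped. The exon of 12 nt is at chr1:135842015-135842026, that of 30 nt at chr1:135843785-135843814 and that of 9 nt at chr1:135850379-135850387 (mm10, plus strand).
Tnnt2-206, exon of 12 nt: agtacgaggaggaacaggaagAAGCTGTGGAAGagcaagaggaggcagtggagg
Tnnt2-201, without the exon of 12 nt: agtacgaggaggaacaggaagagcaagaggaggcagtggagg
Tnnt2-209, exon of 30 nt: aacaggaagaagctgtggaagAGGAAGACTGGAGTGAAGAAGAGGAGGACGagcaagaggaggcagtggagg
Tnnt2-201, exon of 9 nt: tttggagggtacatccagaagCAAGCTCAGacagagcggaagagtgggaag
Tnnt2-205, without the exon of 9 nt: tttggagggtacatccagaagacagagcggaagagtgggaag

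All 3 exons have lengths that keep the reading frame. The exon of 9 nt was held by 75.3% and 74.5% of the TPM of complete transcripts, 74.9% ± 0.555 (SD, n = 2). The exon of 12 nt was held in exactly that form by 9.96% and 7.56%, and by 32.7% and 31.4% if Tnnt2-205 is counted with it. The exon of 30 nt, which is known as a feature of fetal cardiac troponin T, was held in exactly that form by 1.96% and 1.72%. Another 22.8% and 23.8% belonged to Tnnt2-205, whose annotated exon of 34 nt ends at the same base. Tnnt2-205 lacks the exon of 12 nt and that of 11 nt at chr1:135841901-135841911. It has instead annotated pieces at chr1:135842009-135842017 and chr1:135842023-135842031, with only a few bases between them. Whether this unusual model is a real splice form was not tested, and most of the shares given below for the 30-nt forms and for skipping of the 9-nt exon rest on it. The reading frames of Tnnt2-205 and Tnnt2-209 are both 906 nt long and differ at 5 bases within a stretch of 14, so the former carries nearly the same insert as the 12-nt and 30-nt exons together. Together, transcripts with any form of the 30-nt exon held 24.7% and 25.6%. Transcripts without the exon of 9 nt held 24.7% and 25.5%, and all 3 such models also carry a form of the 30-nt exon. The other 2 models with a form of the 30-nt exon keep the exon of 9 nt, but held only 0.0176% and 0.0461%. Skipping of the 9-nt exon is thus annotated only together with a form of the 30-nt exon, and the deposited estimates do not show which of the events the reads supported. Transcripts with none of the 12-nt or 30-nt forms held 67.2% and 68.5%. These proportions differed by less than 3 percentage points between the libraries, which also differed in Tnni3.

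Tnnc1, the calcium sensor, had the simplest make-up. The gene lies on chr14:31208312-31211729 (mm10, plus strand). Tnnc1-202, of 6 exons and 721 nt, held 97.6% and 98.2% of its TPM (97.9% ± 0.417, SD, n = 2). The nonsense-mediated decay model Tnnc1-203 had 32.2 and 29.3 TPM, and the retained-intron model Tnnc1-201 had 17.5 and 17.2 TPM.

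The upstream regions of the 3 cardiac genes are shown for comparison of genes that all reached 1628 TPM or more as gene totals. For 2 of them the region does not precede the transcript of highest estimated TPM. The Tnni3 region precedes Tnni3-201, while Tnni3-207 starts 1701 bp further upstream. The Tnnt2 region precedes position 135836334, while Tnnt2-201 is annotated from 135840875. The sequences are from RefSeq (GRCm38.p6) and end at the base before the annotated start. For Tnni3 only 166 bases are given, up to the first exon of Tnni3-205. Capitals mark matches, on either strand and with overlaps allowed, to 4 motifs. CATTCC is the MCAT element, bound by TEAD factors. AGATAA is a site for GATA factors. The letters TATAAA stand for the TATA box. CAGCTG is an E-box and reads the same on both strands. In these windows no match overlapped another.
Tnnt2, chr1:135836084-135836333, plus strand: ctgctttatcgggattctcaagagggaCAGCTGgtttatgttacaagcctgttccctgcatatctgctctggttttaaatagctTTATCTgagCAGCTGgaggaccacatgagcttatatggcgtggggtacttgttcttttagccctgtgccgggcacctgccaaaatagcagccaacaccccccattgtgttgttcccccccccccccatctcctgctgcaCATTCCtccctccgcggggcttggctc
Tnni3, chr7:4522529-4522694, minus strand: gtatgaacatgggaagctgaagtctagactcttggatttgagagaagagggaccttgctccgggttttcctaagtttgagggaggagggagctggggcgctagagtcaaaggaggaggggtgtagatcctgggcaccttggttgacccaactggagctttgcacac
Tnnc1, chr14:31208062-31208311, plus strand: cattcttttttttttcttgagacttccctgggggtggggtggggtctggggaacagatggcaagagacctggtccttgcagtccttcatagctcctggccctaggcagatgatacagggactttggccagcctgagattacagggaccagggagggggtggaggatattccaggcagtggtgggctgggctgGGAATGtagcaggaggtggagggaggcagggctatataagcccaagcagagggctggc

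Tnnt2 held the MCAT letters from 27 bases before the start shown, the GATA letters on the other strand from 166 bases before it, and the E-box letters from 223 and 157 bases before it. Tnnc1 held the MCAT letters on the other strand, from 58 bases before its start. Only the exact letters were searched, so stretches close to a motif, such as tatataag in the Tnnc1 sequence, were not counted. The 250 bases upstream of Tnni3 held none of the 4 motifs, nor did those before the other RefSeq start of Tnnt2, at position 135836989. Among 32851 RefSeq upstream regions of the same length, 12.6% held CATTCC, 9.99% AGATAA, 12.4% TATAAA and 13.0% CAGCTG on either strand, so none of these matches is rare. Entries were found for 6 of the 8 members, which leaves Tnni2 and Tnnt3 without a sequence.

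The subunits form a complex of equal parts, and their RNA was not equal. Summed over genes, troponin T had 1632 and 1803 TPM, troponin I 4634 and 11034.5 TPM, and troponin C 2075 and 2570 TPM. Troponin I was 2.84 and 6.12 times troponin T, a log2 ratio of 2.06 ± 0.78 (SD, n = 2). Troponin C was 1.27 and 1.43 times troponin T, a log2 ratio of 0.43 ± 0.12. Troponin I was 2.23 and 4.29 times troponin C, a log2 ratio of 1.63 ± 0.67. In both libraries troponin I stood highest and troponin T lowest in TPM. In counts, which are not divided by length, troponin C stood lowest, at 0.873 and 0.949 times troponin T.

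The order depended on which annotated transcripts were summed. Restricted to transcripts with an annotated start codon, stop codon and complete frame, a restriction chosen after seeing the data, troponin T had 1139 and 1348 TPM, troponin I 1023 and 1105 TPM, and troponin C 2057 and 2553 TPM. Troponin I was then 0.898 and 0.820 times troponin T, and the log2 ratio reversed to −0.22 ± 0.09. Against troponin C it was 0.497 and 0.433 times, a log2 ratio of −1.11 ± 0.14. In TPM, troponin C over troponin T kept its direction, at 1.81 and 1.89 times. The deposited estimates assigned the excess of troponin I in the gene totals to transcripts without a complete frame, chiefly Tnni3-207. Of the bases of Tnni3-207, 84.3% also belong to the full-length transcript. The estimates therefore do not show whether the RNA behind this excess lacked a complete frame. With the transcripts without a complete frame left out, the spread between the libraries in the ratio of I to T was smaller.

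**Figure D4:**
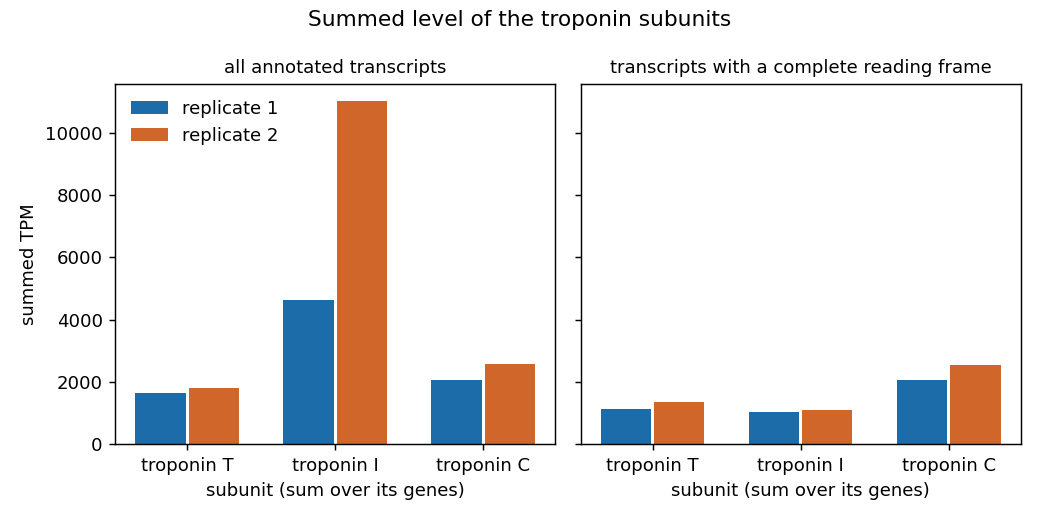
Summed TPM (bars from 0) of troponin T, I and C in replicate 1 (blue) and replicate 2 (orange), over all annotated transcripts (left) and over those with a complete reading frame (right). Troponin I is highest on the left, at 4634 and 11034.5 TPM, and lowest on the right, at 1023 and 1105 TPM.

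Replicate 2 was then compared with replicate 1 gene by gene. An exact binomial test on the rounded counts, with Benjamini-Hochberg adjustment over all 16145 genes of at least 20 counts, compares these 2 libraries and not conditions. A gene was called at an adjusted p under 0.05 and a fold of at least 2. Over all tested genes 11.8% were called, and 8.21% were called higher in replicate 2. Of the 7 tested members 1 was called, Tnnt3, which is near that background. With no fold limit 6 of the 7 passed, against 67.8% of all tested genes. The median log2 ratio was 0.15 over the 7 members and −0.02 over all tested genes.

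Tnnt3, fast skeletal troponin T, was 28.5-fold higher in replicate 2 by the exact binomial test (adjusted p = 9.58e-08), but from 1 count against 34. Its 95% interval was 4.78 to 1157. Tnnt3 reached the count limit of the test only through replicate 2, the library in which it was higher. Its posterior mean was 0.78 TPM in replicate 1 (bounds 0.456 and 1.14) and 1.64 TPM in replicate 2 (bounds 1.16 and 2.14). By posterior means the fold for Tnnt3 was thus much smaller. Of its 34 counts in replicate 2, 26.2 were assigned to the complete transcript Tnnt3-211 and 7.79 to the retained-intron model Tnnt3-221, whereas the count of replicate 1 belonged to Tnnt3-222. This assignment was unstable. By posterior means in replicate 2, Tnnt3-211 held only 5.4% of the gene (0.09 TPM, upper bound 0.243). Tnnt3-221 led there with 29.85% (0.49 TPM), so the estimates do not settle which Tnnt3 transcript was present. Tnni2, fast skeletal troponin I, had a ratio of 1.69 (interval 1.26 to 2.28, adjusted p = 0.000646) and was not called. Tnni1 had a ratio of 0.608 (interval 0.387 to 0.946, adjusted p = 0.0396). Tnni3, with a ratio of 1.90, was just under the fold limit, and its adjusted p was below what the computation can represent. Tnnc1 had a ratio of 1.11 and Tnnt2 one of 1.02. On the log2 scale Tnnc1 stood at 0.15, and at −0.07 once a trend with effective length was removed. Tnnt2 stood at 0.03, and at −0.15 and −0.13 once a trend with GC content or effective length was removed. Tnnt1 stood at 0.07 (adjusted p = 0.739), and at −0.23 and −0.12 under those corrections. Tnni3 stood at 0.93, and at 0.61 and 0.68 under them. For Tnni3, Tnni2, Tnnt3 and Tnni1 the direction held under both corrections and both other scalings.

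**Figure D5:**
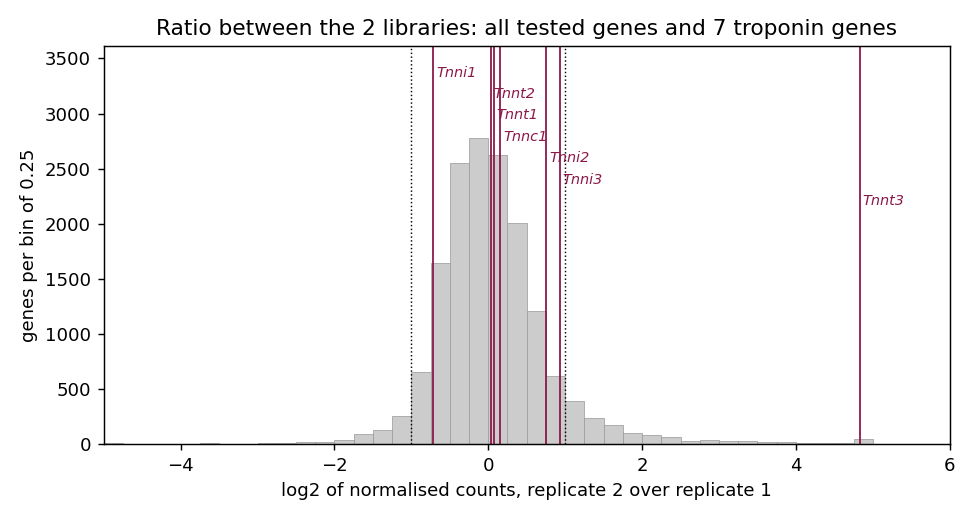
Number of tested genes (bars, bins of 0.25) by log2 of normalised counts in replicate 2 over replicate 1, with ratios beyond 5 placed in the outer bins; red lines mark the 7 tested troponin genes and dotted lines the fold limit of 2. Tnnt3 lies at 4.83, beyond the limit, and Tnni3 at 0.93, inside it.

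Markers of several other cell types differed between the libraries, and their counts are read against the 11.8% of all tested genes that were called. Of the 8 cardiomyocyte markers tested, 0 were called, with a median log2 ratio of −0.01. In the atrial list 1 of 6 was called, Myl7, at 393 and 878 TPM, and it was not called with the GC content or effective length trend removed. The airway and lung list summed to 0.33 and 2155 TPM with 5 of 5 called higher in replicate 2, the red cell list to 4601 and 61710 TPM with 3 of 3, the fat list to 85.8 and 216 TPM with 3 of 4, and the smooth muscle list to 460 and 485 TPM with 1 of 5. With so few genes, 1 call in the atrial or smooth muscle list is near the background. Whether these tissues contributed troponin RNA was not tested. In bulk tissue, fewer cells of a type and less RNA per cell cannot be told apart.

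The skeletal muscle list was set beside the fast and slow skeletal troponins, and how far the list reflects either form was not tested. It summed to 51.3 and 101 TPM, and 1 of its 8 tested genes was called, near the background of 11.8%. This was the light chain Myl1, at 22.0 and 58.9 TPM. The calcium store protein Casq1 had 18.0 and 28.1 TPM, a log2 ratio of 0.37. Atp2a1 (177 and 368 counts), Myoz1 (9 and 12) and Cacna1s (587 and 735) had log2 ratios of 0.80, 0.16 and 0.07. In the other direction, Mybpc2 (807 and 846 counts), Mylpf (14 and 13) and Actn3 (29 and 29) had log2 ratios of −0.19, −0.36 and −0.26. The median log2 ratio over the 8 tested genes was 0.11. The fast myosin heavy chains that define adult skeletal fibres were at or near 0, with 5 and 0 counts for Myh1, 1 and 0 for Myh2, and 0 and 1 for Myh4. Of the embryonic and neonatal list, Myh3 had 0 counts in both libraries, Myod1 and Myog had 1 and 0 each, and Myh8 had 2 and 12. None of these 4 genes reached the count needed for the test.

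Each troponin I gene lies beside a troponin T gene on the chromosome, and the pairs were compared to see how far neighbours differ in level. Tnni3 and Tnnt1, cardiac and slow, are 1922 bp apart on chromosome 7 with no gene between them, and differed 1100-fold and 2256-fold in TPM. Tnni1 and Tnnt2, slow and cardiac, are 25364 bp apart on chromosome 1, and differed 1829-fold and 2604-fold. The gene between them, Lad1 (ladinin, an anchoring filament protein), had 4.62 and 8.53 TPM. Tnni2 and Tnnt3, both fast, are 54425 bp apart on chromosome 7, and differed 51.8-fold and 4.10-fold, both at trace levels and on 1 and 34 counts of Tnnt3. Between them lies Lsp1, an actin-binding protein of white blood cells, at 37.2 and 51.0 TPM, above both of its troponin neighbours. Prr33, at 3.20 and 4.35 TPM, lies on the opposite strand, with its start inside Tnnt3 and its end between Tnni2 and Tnnt3. It overlaps 7936 bp of Tnnt3 and also part of Lsp1. These are overlaps of whole gene spans, and overlap of exons was not measured. Where exons overlap, reads can be told apart only by strand, whose use in counting is not stated. Lad1, Lsp1 and Prr33 were not called different between the libraries.

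The partners of troponin on the thin filament were compared in the same way. The list of 34 genes held actins, tropomyosins, tropomodulins and leiomodins, and kinases and phosphatases that act on troponin. Of these, 2 were called higher in replicate 2 and 1 lower, a share near the 11.8% of all tested genes, with a median log2 ratio of −0.19 against −0.02 over all tested genes. Cardiac actin Actc1 led at 14525 and 13049 TPM, followed by Tpm1, the main cardiac tropomyosin, at 3739 and 2998 TPM. The myosin-binding protein Mybpc3 had 619 and 730 TPM. Skeletal actin Acta1, at 358 and 907 TPM, was 2.25-fold higher in replicate 2. Smooth muscle actin Actg2, at 4 and 10.9 TPM, was 2.79-fold higher. Tropomodulin Tmod2, at 0.92 and 0.51 TPM, was the gene called lower. With the GC content trend removed, only Actg2 was still called.

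RNA was detected for all genes listed as splicing regulators of troponin T. The list was chosen by name, and their action on troponin T was not tested. Of 12 such genes, 0 were called by the exact binomial test with the fold limit, 10 passed the adjusted p alone, and the median log2 ratio was −0.06. Over all tested genes these shares were 11.8% and 67.8%, so the counts are no result particular to the list. Rbm38 had 120 and 279 TPM, Rbm20 had 50.4 and 73.0, Rbm24 had 50.1 and 59.2, and Mbnl1, which represses fetal exons, had 28.0 and 29.5 TPM.

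Among the trace members, the leading transcripts rested on few reads. Tnnt1-210, which has no complete frame, held 51.3% and 56.0% of Tnnt1. Tnnt1-201 held 22.5% and 10.6%, on 48.6 and 28.3 counts. Tnnt1-203 held 4.08% and 15.2%, on 9.15 and 42.0 counts. Tnnt1-204 held 15.8% and 17.6%. Tnni2-201 held 76.5% and 86.8% of Tnni2, and Tnni2-206 held 17.6% and 6.33%. Tnni1-207 held 98.2% and 79.3% of Tnni1 (61.0% and 28.1% by posterior means), and Tnni1-204 held 0 and 20.7% on 4.27 counts. Of the 26 Tnnt3 transcripts, 0 had a value above 0 in both libraries. Over all members, 34 of 82 transcripts did.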

How the data were processed

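Per the labels, poly(A) RNA of 2 mouse heart libraries was sequenced. No source used here names the aligner or quantifier. The deposited gene and transcript tables (mm10, GENCODE M4 per the files' notes) hold the authors' estimated counts, TPM and FPKM, the percent of its gene each transcript holds, and posterior means. Symbols and structures came from GENCODE M21, which matched 98.0% of the 43346 identifiers, 81 of 82 member transcripts and the annotated length of 80. Deposited estimated counts were rounded, scaled by TMM (edgeR 4.0.16, factors 0.957 and 1.04) and compared by an exact binomial test (scipy 1.17.1) in genes with at least 20 counts. The test and its intervals cover counting error only, since the 2 libraries give no replicate of the difference, and read pairs carried no molecular identifiers. As a check of the code, counts were simulated with counting noise only, as the test assumes. Of 200 genes given a 4-fold change among 16182 tested, 100% were recovered, and 0.0313% of the unchanged genes were called. The simulation held no variation between tissue samples, so these are not error rates for the 2 libraries. DESeq2 1.42.0 size factors, total counts, other count limits, trends with GC content or effective length, posterior means, and each library alone were tried as alternatives. The members and the gene lists were chosen with earlier results of these data known. Text names all 8 members, each transcript at 5% of its gene, the 4 highest genes and every called gene of the 2 pathway lists, and the genes between paired troponin genes; other marker genes named were chosen after their values were seen. No likeness to other genes was measured, since 2 libraries give no correlation. Coordinates are mm10.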

Additional observations from a re-analysis of the deposited data

How the results depend on the processing

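Of 91 alternative values for 18 results, 68 stayed on the same side or within the spread of the libraries, 20 moved and 3 reversed. The number of members called between the libraries, 1, was 2 with scaling by total gene counts (Tnni3 joined Tnnt3; this scaling moved the median log2 ratio of all tested genes from −0.02 to 0.11), 0 with at least 100 counts (Tnnt3 was no longer tested) and 6 with no fold limit. The thin filament list had 1 call instead of 3 with the GC content trend removed; the cause was not tested. The share of Tnnt2 was 99.584% with posterior means and 99.755% with counts, that of Tnni3 99.92% with counts, and that of Tnnc1 99.99% with posterior means. The log2 ratio of troponin I over T was 1.16 with counts, which are not divided by length, and reversed to −0.22 with complete reading frames. That of C over T reversed to −0.14 with counts, and was 0.29 with counts per annotated length, 0.83 with protein-coding transcripts and 0.89 with complete reading frames. That of I over C reversed to −1.11 with complete reading frames. Leading transcripts moved for Tnnt1-210 (40.8% with posterior means), Tnnt2-201 (49.2% with counts, 58.8% among protein-coding transcripts) and Tnnc1-202 (98.3% with counts, 100% among protein-coding transcripts). The leading transcripts of Tnnt3, Tnni1 and Tnnc2 were not among these results and were less stable. By posterior means Tnni1-207 held 61.0% and 28.1%, and the lead passed to Tnnt3-221 in Tnnt3 and to Tnnc2-202 in Tnnc2. Leaving out 1 of 2 libraries gives the other's value, which lies within 1 SD by construction. Such values for levels, shares and ratios are among the 68 and could not have moved, so the 68 overstate stability. No paired analysis was possible because there was 1 group. Depth limits Tnnc2, Tnnt3 and the transcripts of the trace genes.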
